A study of Mus musculus with 12 samples.

Results

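The Schlafen genes described here are Slfn1, Slfn2, Slfn3, Slfn5, Slfn8 and Slfn9 of the mouse. They were chosen by gene name, and all 6 were among the 41128 genes for which the study deposited an RNA expression value in splenic lymphocytes. The 12 libraries were made from C57BL/6J mice aged 6 to 8 weeks and form 4 groups of 3, namely female and male resting B cells (CD43-, that is without a sialoprotein that most other leukocytes carry) and female and male naive T cells (CD4+CD62L+). The mice carried no allele or treatment that the labels name. Before the naive T cells were taken by CD62Lhi CD44lo CD25- sorting, regulatory and gamma-delta T cells were depleted. Each library came from pooled mice according to the design text, and p-values measure the spread between such libraries. Values are adjusted TPM, a level per transcript length, given with a lower and an upper bound. How it was adjusted is not stated, and its totals differ between libraries.

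Schlafen proteins share a core that binds and, in some members, cleaves RNA such as transfer RNA. Many of the genes are induced by type I interferons through STAT proteins and interferon regulatory factors. The family was named for its link to lymphocyte rest. Slfn1 restrains the growth of thymocytes when it is overexpressed, and mice with a damaged Slfn2 lose resting T cells because the cells leave quiescence and die. By structure the mouse genes form a short class (Slfn1 and Slfn2), an intermediate class (Slfn3 and Slfn4) and a long class with a helicase-like extension (Slfn5, Slfn8, Slfn9 and Slfn14).

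The class of each gene could be read from its coding length in the GENCODE M21 annotation of GRCm38, the build of the submitters' mm10 files. The longest coding length, without the stop codon, was 1011 bases for Slfn1 and 1134 bases for Slfn2. It was 1920 bases for Slfn3, 2652 bases for Slfn5 and 2730 bases for both Slfn8 and Slfn9. The genes lie in a cluster at chr11:82942341-83286726 that spans 344.4 kb, counted from the antisense gene Slfn5os to Slfn14. No protein-coding gene of another family lies wholly inside it, and the end of Unc45b (chr11:82910550-82943403) overlaps its first bases. Slfn5 (chr11:82951349-82964840), Slfn2 (chr11:83065112-83070678), Slfn1 (chr11:83116849-83122670) and Slfn3 (chr11:83191330-83215154) are on the forward strand. Slfn9 (chr11:82978390-82991830) and Slfn8 (chr11:83002158-83020810) are on the reverse strand.

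**Figure D1:**
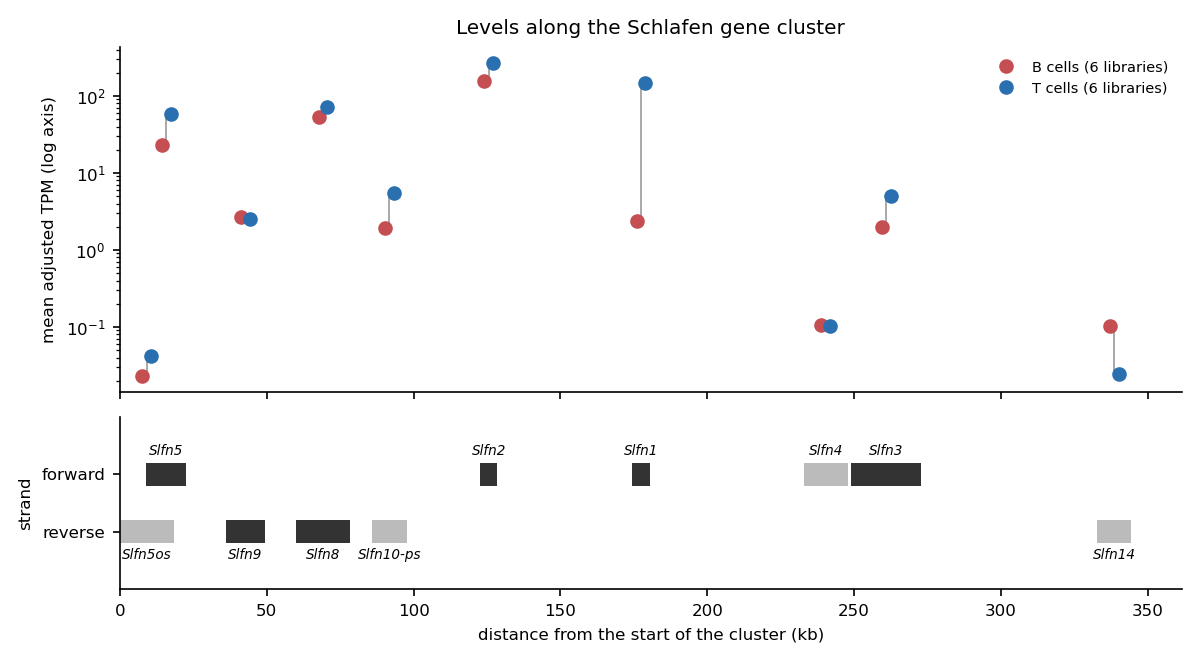
Mean adjusted TPM of each Schlafen gene of the cluster in B cells (red, 6 libraries) and T cells (blue, 6 libraries) on a log axis, above its gene body drawn to scale by distance in kb from the start of the cluster. Dark bars are the 6 genes described and grey bars the other annotated genes; Slfn1 shows the widest gap, 2.39 against 145.1, and its neighbour Slfn2 is the highest gene in both cell types.

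Promoter sequences are shown for 4 genes. Slfn1 had the largest difference between the cell types, Slfn5, Slfn8 and Slfn9 hold the letters of an interferon response element, and Slfn8 and Slfn9 are similar to each other over the promoter but far apart in level. Each window runs from 250 bases before to 50 bases after the RefSeq start (GRCm38.p6), 5′ to 3′ on the strand of the gene. Capitals mark the core of the interferon-stimulated response element, searched on both strands as GAAA, 2 bases of any kind and GAAA. The windows are chr11:83116570-83116869 for Slfn1, chr11:82951852-82952151 for Slfn5, chr11:83020761-83021060 for Slfn8 (the more upstream of its 2 RefSeq starts) and chr11:82991781-82992080 for Slfn9.
Slfn1: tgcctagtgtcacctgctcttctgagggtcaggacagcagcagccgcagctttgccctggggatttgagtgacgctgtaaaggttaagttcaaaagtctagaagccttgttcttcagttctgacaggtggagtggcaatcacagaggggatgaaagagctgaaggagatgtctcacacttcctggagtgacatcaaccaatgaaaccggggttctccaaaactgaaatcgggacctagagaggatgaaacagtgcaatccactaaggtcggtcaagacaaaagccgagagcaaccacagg
Slfn5: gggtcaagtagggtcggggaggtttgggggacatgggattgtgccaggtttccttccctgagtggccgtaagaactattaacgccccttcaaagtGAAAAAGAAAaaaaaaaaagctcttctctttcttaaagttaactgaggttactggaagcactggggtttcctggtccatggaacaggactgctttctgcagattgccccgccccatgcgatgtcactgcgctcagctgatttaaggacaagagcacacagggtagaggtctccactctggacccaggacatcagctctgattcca
Slfn8: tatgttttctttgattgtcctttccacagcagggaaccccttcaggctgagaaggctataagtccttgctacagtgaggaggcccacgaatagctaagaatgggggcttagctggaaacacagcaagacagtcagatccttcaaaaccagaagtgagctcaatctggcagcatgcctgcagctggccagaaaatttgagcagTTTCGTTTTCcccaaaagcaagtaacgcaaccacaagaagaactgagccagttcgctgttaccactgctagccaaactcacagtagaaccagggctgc
Slfn9: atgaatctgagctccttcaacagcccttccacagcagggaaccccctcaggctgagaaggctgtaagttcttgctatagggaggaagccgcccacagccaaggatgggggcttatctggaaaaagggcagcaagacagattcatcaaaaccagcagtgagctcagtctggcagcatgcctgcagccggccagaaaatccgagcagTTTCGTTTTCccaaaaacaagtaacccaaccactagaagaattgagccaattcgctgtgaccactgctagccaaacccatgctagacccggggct

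The core occurred once in each of the windows of Slfn5, Slfn8 and Slfn9, and not in those of Slfn1, Slfn2 and Slfn3. Among 32851 promoter windows of the same length, 1131 (3.44%) held it. Its first base was at position -155 from the start of Slfn5, at -48 for Slfn8 and at -45 for Slfn9. From the other RefSeq start of Slfn8 it was at -136. The match in Slfn5 was read on the strand of the gene and that in Slfn8 and Slfn9 on the opposite strand, where both genes have the same letters. The core of the gamma-activated site, TTCNNNGAA, was in none of the 9 Schlafen genes that have a window and in 8.3% of all windows. A global alignment of the Slfn8 and Slfn9 windows had 248 identical bases in 308 columns, an identity of 80.5%, whereas the most alike of the other pairs, Slfn5 and Slfn1, reached 48.8%. A match of letters is a description and not evidence that a factor binds there.

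The cell type labels held in every library. The summed adjusted TPM of 5 B cell markers was between 2610 and 2972 in B cells and between 0.900 and 5.34 in T cells. The sum of 5 T cell markers was between 1017 and 1194 in T cells and between 9.76 and 14.1 in B cells. A pair of libraries stood apart, since the summed 3 regulatory T cell markers were 20.97 in female T cell library 6 and 17.2 in male T cell library 6, against 1.75 to 3.14 in the other T cell libraries. The totals of adjusted TPM ran from 561020 to 1453940, and the sequencing depth is unknown. In cells of mixed kinds, fewer cells of a type and less RNA per cell cannot be told apart.

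The comparison of B with T cells asks which Schlafen genes separate the lineages. Its fits took the 6 T cell libraries as independent, although same-numbered female and male ones varied together across genes. Its standard errors and p-values may therefore be too small. Of the 6 genes, 5 were higher in T cells past the threshold, and Slfn9 did not pass. This count is to be read against all 12520 genes tested, of which 73.0% passed in either direction, 41.6% higher in T cells and 31.4% higher in B cells. The libraries of the cell types did not overlap for 5 of the 6 genes and for 53.9% of all genes tested. The differences ranged from a fold of 60.7 for Slfn1 to 1.33 for Slfn8 in ratios of mean adjusted TPM. All 6 genes passed the filter on low values, and the median of their log2 differences, B minus T, was -0.91, against -0.09 over all genes tested. Within females and within males the same 5 genes passed, against 35.6% and 34.7% of all genes higher in T cells.

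Slfn1, of the short class, was a T cell gene in these libraries. Its adjusted TPM was 147.5, 146.2 and 132.6 in female T cells and 130.7, 130.4 and 183.2 in male T cells. In B cells it was 2.95, 2.10 and 3.18 in females and 3.45, 2.16 and 0.520 in males. The lowest T cell library was 126.99 above the highest B cell library. The log2 difference, B minus T, was -5.50 ± 0.21 (SE, 95% interval -5.95 to -5.04, adjusted p = 5.7e-11, limma), and 45 of the 12520 genes tested had a more negative one. Its B cell mean exceeded that of 20.4% of the tested genes and its T cell mean that of 96.4%.

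The low B cell values of Slfn1 were 0.358% to 2.38% of its T cell mean. The summed T cell markers in the same B cell libraries were 0.872% to 1.26% of their T cell mean. Of these markers, Lck, the kinase that starts T cell receptor signalling, was at 3.02% to 4.53%, and Cd3d, Cd3e, Cd4 and Tcf7 were each at or below 0.208%. In male B cell library 3 the summed T cell markers were at 0.982% and Slfn1 at 0.358%. The part of stray T cell RNA in the B cell values of Slfn1 was not tested. Without male B cell library 3 the log2 difference of Slfn1 was -5.28.

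Slfn2, the other short gene and the one whose loss breaks T cell quiescence, had the highest level of the family in both cell types. It was 291.7, 259.1 and 241.6 in female T cells and 287.7, 247.8 and 292.3 in male T cells. In B cells it was 145.4, 145.4 and 183.7 in females and 182.9, 175.2 and 112.5 in males. The cell types did not overlap, and the T cell mean of 270.0 ± 23.2 (SD, n = 6) was 1.71 times the B cell mean of 157.5 ± 28.1 (SD, n = 6). The log2 difference was -0.79 ± 0.12 (SE, 95% interval -1.05 to -0.53, adjusted p = 6.1e-05, limma). Slfn2 exceeded 97.1% of the tested genes in B cells and 98.1% in T cells.

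The next-door genes Slfn2 and Slfn1 thus had unlike ratios in the lineages. Slfn2 was 49.3 to 216.5 times Slfn1 in the 6 B cell libraries, with a median of 63.6. The upper limit came from male B cell library 3, and without it the range was 49.3 to 80.95. In the 6 T cell libraries it was 1.60 to 2.20 times Slfn1.

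Slfn3, of the intermediate class, was low in both cell types. It was 4.86, 4.93 and 5.49 in female T cells and 4.80, 4.76 and 5.67 in male T cells. In B cells it was 1.72, 1.75 and 2.13 in females and 1.90, 2.55 and 1.81 in males. Every T cell library was above every B cell library, with a ratio of means of 2.57. The log2 difference was -1.04 ± 0.08 (SE, adjusted p = 6.8e-08, limma), which understates the ratio because 1 was added before the logarithm. Of the 50-base windows in the Slfn3 transcripts, 15.6% also occurred in a transcript of another gene and 7.39% in one of Slfn4, its neighbour, which was at or below 0.144 in all 12 libraries.

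Among the long genes, Slfn5, a nuclear member linked to interferon responses, had the largest difference. It was 67.2, 64.4 and 50.02 in female T cells and 52.9, 54.5 and 61.4 in male T cells. In B cells it was 25.9, 19.0 and 28.6 in females and 28.9, 20.5 and 14.6 in males. The groups did not overlap, and the T cell mean was 2.55 times the B cell mean. The log2 difference was -1.34 ± 0.15 (SE, 95% interval -1.66 to -1.02, adjusted p = 3.1e-06, limma). The antisense gene Slfn5os overlaps Slfn5 and was at or below 0.0599 in every library. Whether the quantification used the strand is not stated.

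Slfn8, the long gene whose overexpression slows T cell growth, differed least among the 5. It was 81.1, 75.2 and 70.7 in female T cells and 66.5, 63.3 and 73.4 in male T cells. In B cells it was 60.7, 52.4 and 59.5 in females and 57.7, 50.4 and 43.2 in males. The lowest T cell library was 2.61 above the highest B cell library, but the deposited intervals of these libraries overlapped. The log2 difference was -0.41 ± 0.08 (SE, 95% interval -0.57 to -0.24, adjusted p = 0.00033, limma).

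Slfn9, a long gene of low level, did not differ detectably between the cell types. It was 2.44, 2.60 and 2.92 in female T cells and 2.40, 2.28 and 2.69 in male T cells. In B cells it was 2.88, 2.71 and 3.05 in females and 2.93, 2.03 and 2.46 in males. The groups overlapped, and the log2 difference was 0.04 ± 0.07 (SE, adjusted p = 0.60, limma) with a 95% interval from -0.12 to 0.20. Its sign was negative, at -0.07, under quantile normalization. With every library at the same total it was 0.33 (adjusted p = 0.089, limma), above that interval but not past the threshold.

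The promoter windows of Slfn8 and Slfn9, printed above with the same core in capitals, were 80.5% identical, and the levels of the genes were unlike. Slfn8 was 17.5 to 24.9 times Slfn9 in the 6 B cell libraries and 24.2 to 33.3 times in the 6 T cell libraries. Both genes share transcript sequence, since 389 of the 50-base windows, 9.30% of those of Slfn8 and 6.52% of those of Slfn9, were common to both genes. Both also share windows with the pseudogene Slfn10-ps, 10.1% for Slfn8 and 8.1% for Slfn9. The deposited intervals of Slfn8 were narrow, with an upper bound 1.05 to 1.09 times the lower one, and those of Slfn9 were wider, at 1.24 to 1.59 times.

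The calls of Slfn2 and Slfn8 depend on how libraries are scaled. When each library was brought to the same total, 3 of the 6 genes passed (Slfn1, Slfn3 and Slfn5), against 15.5% of all genes higher in T cells. Slfn2 then had a log2 difference of -0.41 (adjusted p = 0.094, limma) and Slfn8 one of -0.03 (adjusted p = 0.90, limma). That scaling moved the median of all genes by 0.35, from -0.09 to 0.26, and the share of calls that were higher in B cells from 43.0% to 71.6%. Relative to the median of all genes, Slfn2 was at -0.70 as deposited and at -0.67 under the same total, and Slfn8 at -0.32 and -0.29.

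**Figure D2:**
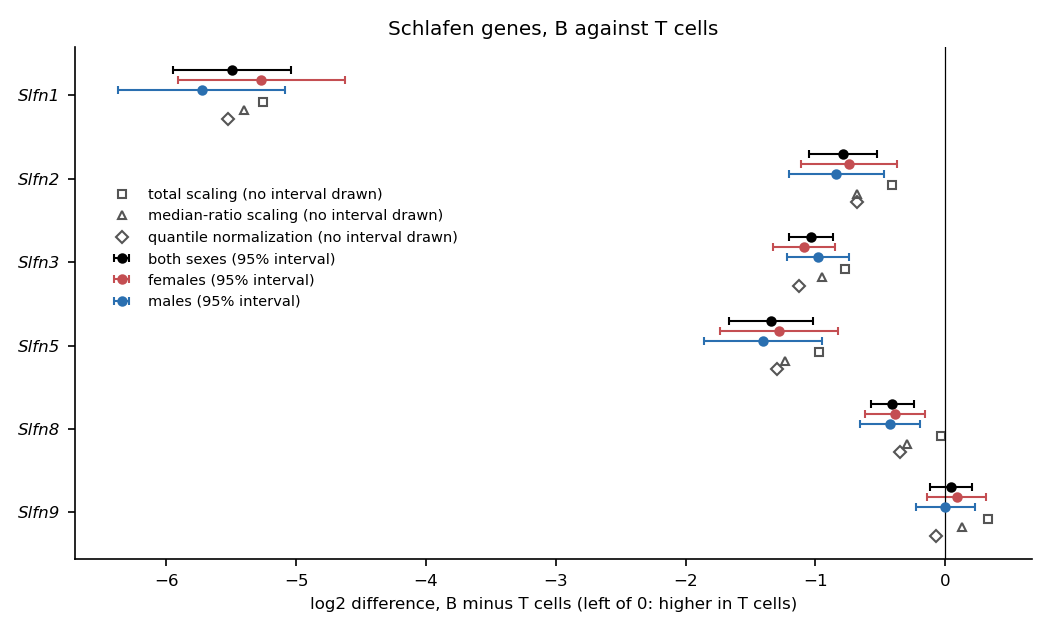
Log2 difference of adjusted TPM + 1, B minus T cells, for each gene. Filled points with 95% intervals are the fit over both sexes (black), females (red) and males (blue), and open symbols are the same difference under 3 other scalings; the filled points of 5 genes lie below 0 with intervals that do not reach it, Slfn9 spans 0, and Slfn8 reaches -0.03 when every library has the same total.

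**Figure D3:**
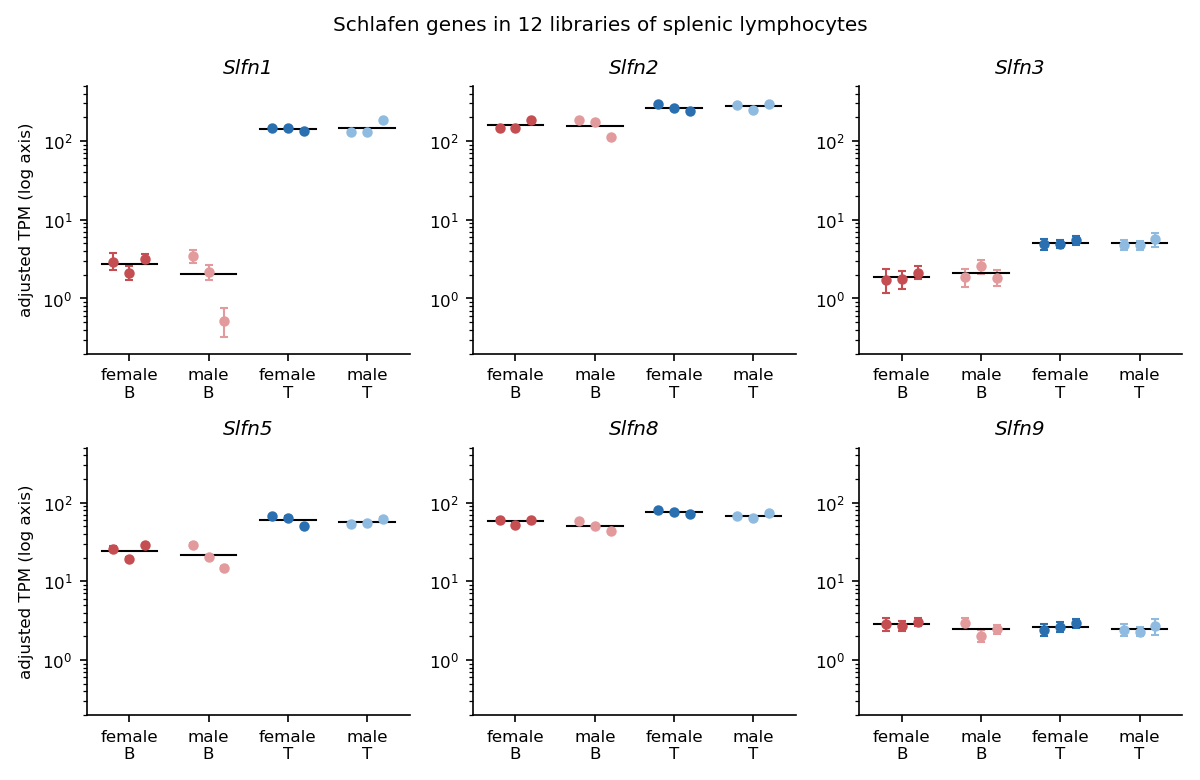
Adjusted TPM of each gene in each of the 12 libraries on a log axis, by group. Points are libraries with the deposited lower and upper bounds and black lines are group means; Slfn1 falls to 0.520 in male B cell library 3, below the 2.10 to 3.45 of the other B cell libraries.

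Since adjusted TPM is per length, the levels of the genes can be set in order within a cell type. In B cells the order of the means was Slfn2, Slfn8, Slfn5, Slfn9, Slfn1 and Slfn3. The deposited intervals of neighbours were apart in 6 of 6 libraries down to the step from Slfn5 to Slfn9. Below that, the value of Slfn9 was above that of Slfn1 in only 2 of 6 libraries, although its mean was higher. The intervals of Slfn9 were wholly above those of Slfn1 in 1 of 6 libraries and above those of Slfn3 in 3 of 6. Those of Slfn1 were wholly above those of Slfn3 in 2 of 6 and wholly below them in 1, male B cell library 3. The order of the 3 low genes was therefore not the same in every library. In T cells the order was Slfn2, Slfn1, Slfn8, Slfn5, Slfn3 and Slfn9, with separate intervals at each step in 6 of 6 libraries. Slfn1 thus stood among the lowest 3 of the family in B cells and next to the top in T cells.

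Shares of the family within a library are not changed by a factor common to all genes of that library. The summed adjusted TPM of the 6 genes was 241.5 ± 39.2 (SD, n = 6) over the B cell libraries and 552.9 ± 47.1 (SD, n = 6) over the T cell libraries. Slfn1 took 0.950% ± 0.356 of it in B cells and 26.2% ± 1.93 in T cells. The share of Slfn2 was 65.1% ± 2.77 in B cells against 48.9% ± 2.14 in T cells. That of Slfn8 was 22.6% ± 2.23 against 12.99% ± 0.891. None of these 3 shares overlapped between the cell types, nor did that of Slfn9, at 1.13% ± 0.202 and 0.465% ± 0.0602. The shares of Slfn5, at 9.39% ± 1.20 and 10.6% ± 0.817, and of Slfn3, at 0.831% ± 0.151 and 0.924% ± 0.0923, overlapped. Shares are parts of a whole, so the larger share of Slfn1 in T cells leaves less for the other genes there. The smaller shares of Slfn2 and Slfn8 in T cells are not lower levels. Their mean levels as deposited were 1.71 and 1.33 times as high in T cells, and that of Slfn9 did not differ detectably.

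**Figure D4:**
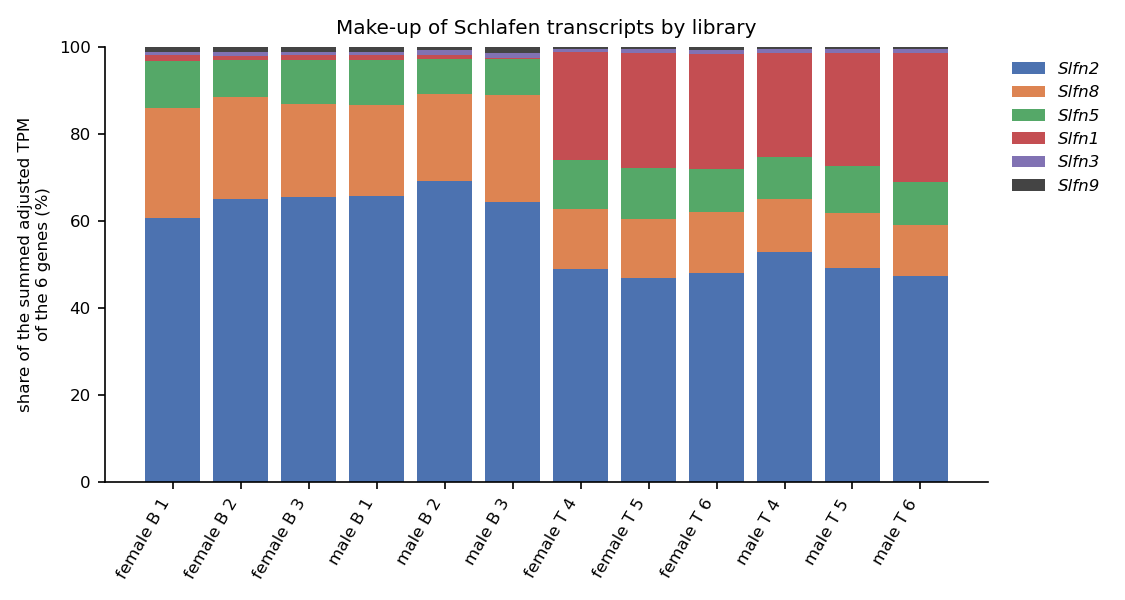
Share, in percent, of each gene in the summed adjusted TPM of the 6 genes, as 1 stacked bar for each of the 12 libraries. Slfn2 fills 60.7% to 69.3% of the bar in B cells and 46.9% to 52.8% in T cells, and Slfn1 goes from at most 1.24% in B cells to 24.0% to 29.6% in T cells.

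Of the Schlafen genes outside the 6, Slfn10-ps, a transcribed pseudogene next to Slfn8, was measured above the filter. Its B cell mean was 1.93 ± 0.486 (SD, n = 6) and its T cell mean 5.43 ± 0.688 (SD, n = 6), without overlap, and its log2 difference was -1.14 ± 0.11 (SE, adjusted p = 7e-07, limma). Slfn4, a gene of myeloid cells, Slfn14, a ribosome-binding endonuclease of platelet and red cell precursors, and Slfnl1 on chromosome 4 did not exceed 0.220 in any library and were not tested. Among protein-coding genes that flank the cluster, Fndc8, Unc45b and Rasl10b were below the filter. Nle1, a ribosome assembly factor, was higher in T cells by a log2 difference of -0.59 ± 0.07 (SE, adjusted p = 6.1e-06, limma). Ap2b1, a subunit of the clathrin adaptor, was higher in B cells by 0.46 ± 0.06 (SE, adjusted p = 2.4e-05, limma). With every library at the same total Nle1 had -0.24 and did not pass, and Ap2b1 had 0.84.

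The comparison of the sexes asks whether any Schlafen gene differs between females and males. None of the 6 passed the threshold in B cells, where 0.144% of all genes did (18 genes, and 373 at an unadjusted p under 0.05). None passed in T cells, where 0.104% did (13 genes, and 319 unadjusted). With the replicate number as a block in T cells alone, 5 genes passed, against 10 in T cells alone without it, and no Schlafen gene was among them. The difference of the sex effects between B and T cells was past the threshold for 0.0% of all genes (295 unadjusted) and for none of the 6. In all 12 comparisons of a Schlafen gene between the sexes within a cell type the libraries of females and males overlapped. Within the same-numbered pairs of T cell libraries Slfn9 was higher in the female in 3 of 3 pairs, by 0.0356 to 0.319 adjusted TPM, and the other 5 genes in 2 of 3. In the fit with the block Slfn9 had an adjusted p of 0.86 (limma).

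The smallest unadjusted p of the family was that of Slfn8 in B cells. Its mean was 57.5 ± 4.51 (SD, n = 3) for the females against 50.4 ± 7.26 (SD, n = 3) for the males, and the log2 difference was 0.19 ± 0.11 (SE, limma, unadjusted p = 0.095, adjusted p = 1.0) with a 95% interval from -0.04 to 0.43. In T cells Slfn8 was 75.7 ± 5.25 (SD, n = 3) for the females against 67.7 ± 5.14 (SD, n = 3) for the males, with an interval from -0.07 to 0.39. The T cell intervals between the sexes come from the fit that did not use the same-numbered pairs. Slfn1 had the widest intervals, from -0.22 to 1.06 around 0.42 in B cells and from -0.68 to 0.60 around -0.04 in T cells. Without male B cell library 3 the B cell difference was -0.02. Over the other genes and both cell types the differences lay between -0.10 and 0.22.

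**Figure D5:**
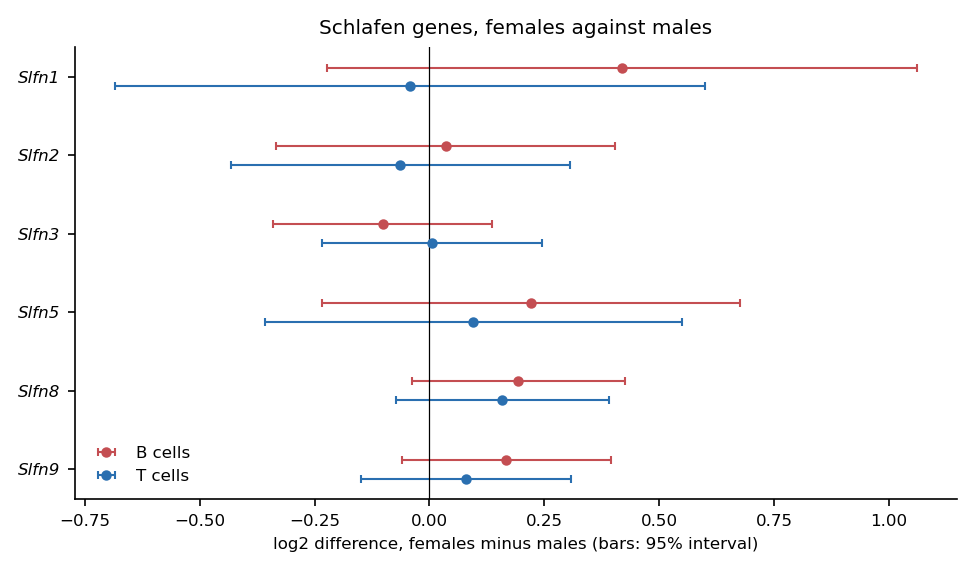
Log2 difference of adjusted TPM + 1, females minus males, for each gene in B cells (red) and T cells (blue), with 95% intervals from the fit over all genes. That fit did not use the same-numbered pairs of T cell libraries. Every interval contains 0, and those of Slfn1, from -0.22 to 1.06 in B cells and from -0.68 to 0.60 in T cells, are the widest.

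The coefficient of variation over 6 libraries ran from 12.3% for Slfn8 to 44.6% for Slfn1 in B cells, and from 7.68% for Slfn3 to 13.9% for Slfn1 in T cells. Without male B cell library 3, that of Slfn1 in B cells was 22.0%, and that of Slfn8 was 8.07%, below its 8.88% in T cells. Male B cell library 3 was the lowest B cell library for 4 genes, Slfn1, Slfn2, Slfn5 and Slfn8. The summed adjusted TPM of the family was 175.1 there and 223.3 to 280.1 in the other B cell libraries. All 5 calls between the cell types were made with each of the 12 libraries left out in turn, and without both T cell libraries numbered 6, which held more RNA of regulatory T cell markers.

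The genes with the profile most like each Schlafen gene over the 12 libraries were found by the root mean square difference of centred log2 values among 6619 genes. For Slfn1 they were Lef1, a transcription factor of T cells (0.38), Trbv4, a T cell receptor segment (0.39), and Sh2d1a, a signalling adaptor of T and NK cells (0.39). The B cell mean of Lef1 was 4.47 ± 0.255 (SD, n = 6) and its T cell mean 268.8 ± 9.08 (SD, n = 6). For Slfn2 they were the zinc finger genes Zfp51 (0.10) and Zfp54 (0.13) and the ubiquitin ligase gene Fbxo25 (0.13). For Slfn3 they were Zfp109 (0.087), Ccrn4l (0.098) and Ict1os (0.10). For Slfn5 they were Dusp10, a phosphatase of stress kinases (0.16), Zbp1, an interferon-induced nucleic acid sensor (0.18), and Ccr7, the receptor that guides lymphocytes to lymph nodes (0.19). For Slfn8 they were Hsdl2 (0.097), Pusl1 (0.11) and Creb3 (0.11). Slfn9 varied too little for this search, with an SD of 0.12.

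Genes that interferons induce, as they do many Schlafen genes, were taken as a list of 20. Of these, 12 were higher in T cells, 4 were higher in B cells and 4 did not pass, with a median log2 difference of -0.67, against -0.09 over all genes. Over all genes tested, 41.6% were higher in T cells and 31.4% in B cells. Ifit1, an antiviral RNA-binding protein, had -2.63 ± 0.18 (SE), its relative Ifit2 had -2.28 ± 0.12 (SE) and Zbp1 had -1.39 ± 0.10 (SE). In the other direction Mx1, an antiviral GTPase, had 1.69 ± 0.25 (SE), Mx2 had 0.75 ± 0.13 (SE) and Eif2ak2, the kinase PKR, had 0.60 ± 0.08 (SE). With every library at the same total, 10 of the 20 were higher in T cells, against 15.5% of all genes. At that scaling 5 of the 20 were higher in B cells, against 5087 of the 13016 genes tested.

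Of 10 genes of interferon receptors and their signalling, 7 were higher in T cells, 2 higher in B cells and 1 did not pass, with a median of -0.22, beside the shares of 41.6% and 31.4% over all genes. Jak1, a receptor kinase, had -0.80 ± 0.05 (SE) and Irf9 had -0.32 ± 0.09 (SE). Stat2, a partner of Irf9 in the complex that binds interferon response elements, was higher in B cells by 0.85 ± 0.07 (SE), and Ifngr2 by 0.58 ± 0.07 (SE). With every library at the same total, 1 of the 10 was higher in T cells, against 15.5% of all genes. At that scaling 2 of the 10 were higher in B cells, against 5087 of the 13016 genes tested. The median was then 0.15 and Irf9 had 0.06.

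Of 13 genes linked to lymphocyte quiescence, 5 were higher in B cells, 4 higher in T cells and 4 did not pass, with a median of -0.07. Since 73.0% of all genes passed in either direction, the count is near that of genes at large. Foxp1 (0.85 ± 0.06, SE), Rb1 (0.74 ± 0.07) and Tob2 (0.71 ± 0.10) were higher in B cells. Cdkn1b (-0.71 ± 0.07), Tob1 (-0.53 ± 0.12) and Rbl2 (-0.32 ± 0.06) were higher in T cells. None of the 4 genes higher in T cells passed with every library at the same total, where Rbl2 had 0.06. At that scaling 15.5% of all genes were higher in T cells. All 4 cell cycle genes were higher in B cells, against 31.4% of all genes tested. Mki67 had 2.99 ± 0.18 (SE), Top2a 2.21 ± 0.16 (SE) and Cdk1 1.96 ± 0.16 (SE). Only 2 of the 4 reached 5 adjusted TPM in at least 3 libraries. Some marker sums of other cells were also higher in B cell libraries. Summed plasma cell markers were 56.7 to 137.7 there, against 2.01 to 3.00 in T cell libraries. Of these 3 markers Prdm1 went the other way, at -0.67 ± 0.07 (SE). Summed monocyte and macrophage markers were 11.9 to 16.0 in B cell libraries against 1.07 to 5.34. Summed markers of CD8 T cells and of regulatory T cells were higher in T cell libraries. Of the 2 CD8 markers, Cd8b1 had -2.95 ± 0.09 (SE) and Cd8a went the other way, at 0.99 ± 0.14 (SE). Of the regulatory markers, Ikzf2 had -2.10 ± 0.47 (SE), Il2ra did not pass, at -0.21 ± 0.42 (SE), and Foxp3 was below the filter. Summed erythroid markers varied between libraries, from 0.611 to 196.2 in B cells and from 2.04 to 43.1 in T cells. The part of other cells in the cell cycle values was not tested. Of 6 genes linked to transfer RNA, 5 were tested. Of these, 1 was higher in B cells, 2 were higher in T cells and 2 did not pass. Over all genes 31.4% were higher in B cells and 41.6% in T cells. The median of the 5 was -0.09, the same as over all genes. Rnh1, the ribonuclease inhibitor, was higher in B cells by 0.68 ± 0.10 (SE). Nsun2, a methyltransferase, had -0.33 ± 0.08 (SE) and Elac2, which trims the ends, had -0.32 ± 0.10 (SE), and both had 0.04 with every library at the same total.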

How the data were processed

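RNA was freed of ribosomal RNA and made into stranded libraries. The authors deposited 1 signal per gene and library, named adjusted TPM, with lower and upper bounds. The submitters' processing notes name Trim Galore, FastQC, STAR and mm10. The quantification tool, the adjustment and the level of the bounds are not given in the sources used here, and the ERCC spikes added to the RNA were not used here. The values are not counts, so depth is unknown and precision was read from the bounds and the replicates.

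Groups were taken from the labels. Genes with at least 1 adjusted TPM in at least 3 libraries (12520 of 41128) were tested with limma 3.58.1 in R 4.3.3 on log2(adjusted TPM + 1), with 1 coefficient per group and a mean-variance trend. The Benjamini-Hochberg adjusted p over all tested genes had to be under 0.05. Fold changes on this scale understate those of low genes. The fits were also run on simulated data with independent libraries and a small part of the genes changed. That setting lacks the shared variation of same-numbered T cell libraries, so it does not give the error rate here. Identifiers were matched to GENCODE M21 (40254 genes, 97.9%). Promoters come from RefSeq and were aligned with Biopython 1.88. Other steps used Python 3.11.15.

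In T cells the deviations of same-numbered female and male libraries from their group means correlated across genes with r of 0.721, 0.548 and 0.521, so the numbers were taken to pair them. Neither the fits of B against T cells nor the main fits between the sexes used these pairs. Named genes were the 6 genes, other Schlafen genes, 3 neighbours on each side, the 3 most similar profiles and, from each list, up to 3 genes past the threshold with the largest differences in each direction. A few further list and marker genes were named after their values were seen. Some genes that this rule names are not reported here. The genes and lists were chosen with earlier results of these data known.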

Additional observations from a re-analysis of the deposited data

Results flagged for a closer look

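Of the 12 groups of 6 libraries (6 genes in 2 cell types), 2 had a library far from the rest on the log2 scale, where chance gives about 1 in 20 groups. Slfn1 was 0.52 in male B cell library 3, where the gap to the next library was 0.663 of the whole range, above Dixon's critical value of 0.625. On the linear scale that gap was 0.539 of the range. Slfn1 was 183 in male T cell library 6, with a gap of 0.638 of the range on the log2 scale and 0.676 on the linear scale. That library also had the largest total of adjusted TPM, 1453940, and summed regulatory T cell markers of 17.2, whereas female T cell library 6 had markers of 20.97 and Slfn1 at 132.6. The part of these in the Slfn1 values was not tested.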

How the results depend on the processing

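The count of 5 Schlafen genes higher in T cells was 3 with every library at the same total, where Slfn2 and Slfn8 did not pass. It was 5 under the other alternatives that tested all 6 genes and in all fits that left out 1 library, and 4 under the stricter filter of 5 adjusted TPM, which left Slfn3 and Slfn9 untested. No sex comparison gained a Schlafen call in any alternative. Over all genes, 18 sex calls in B cells, 13 in T cells and 0 for the difference of the sex effects became 10985, 10607 and 11201 with no filter on low values, where calls between B and T cells went from 9134 to 24591. They were 24, 59 and 12 with weights per library, 44, 26 and 20 at the same total, 23, 24 and 1 with a pseudocount of 0.1, 20, 17 and 3 without the trend, 23, 9 and 1 under quantile normalization, and 15, 7 and 0 under the stricter filter.

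Signs of values that did not pass were unsteady. Slfn9 between B and T cells was -0.0745 under quantile normalization. At the same total, the sex difference of Slfn2 was -0.0346 in B cells and 0.23 in T cells, that of Slfn1 in T cells was 0.25, and the difference of sex effects was -0.27 for Slfn2, -0.23 for Slfn5, -0.32 for Slfn8 and -0.16 for Slfn9. With weights per library Slfn1 in T cells was 0.0864. Without both T cell libraries numbered 6, an alternative chosen after seeing the data, the sex difference in T cells was 0.17 for Slfn1 and 0.0421 for Slfn2, and the difference of sex effects was -0.0069 for Slfn2, -0.0683 for Slfn5 and -0.071 for Slfn8. With 1 library left out, the sex difference in B cells ranged from -0.0161 to 0.76 for Slfn1, from -0.19 to 0.16 for Slfn2 and from -0.0124 to 0.46 for Slfn5. In T cells it ranged from -0.12 to 0.12 for Slfn1 and from -0.0407 to 0.0741 for Slfn3. The difference of sex effects ranged from -0.12 to 0.22 for Slfn2, from -0.11 to 0.36 for Slfn5, from -0.0697 to 0.14 for Slfn8 and from -0.0073 to 0.18 for Slfn9. The causes were not tested.

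In B cells the same-numbered libraries correlated with r of -0.169, -0.0382 and -0.337, so the numbers are only shared there. With the replicate number as a block, 5 genes passed between the sexes in B cells and 5 without it, and 0 Schlafen genes passed in either cell type. In T cells the block took the calls over all genes from 10 to 5. Which genes were shared was not counted. Depth is unknown, so values near the filter carry only the deposited bounds as a measure of counting error.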
